A study of Drosophila melanogaster with 2 samples.

Results

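The 9 neuronal genes elav, nSyb, Syt1, brp, para, futsch, Syx1A, Appl and cac were examined for binding of Ravus-eGFP in whole Drosophila melanogaster embryos. They were given as a list of gene names, and all 9 were found among the 13968 protein-coding genes annotated on the chromosome arms of BDGP6, the dm6 sequence. Chromatin immunoprecipitation with sequencing was done with an antibody against GFP on transgenic embryos of 0 to 24 h from the strain Ravus-GFP, which carries an insertion targeting Ravus, per the labels. There was 1 group of 2 biological replicates, both of the same strain, and no untagged or otherwise treated group. Every embryo carried the fusion protein, and neurons were not separated from the other tissues, so a peak cannot be assigned to a cell type. Peak lists hold no RNA levels, so the tissue could not be checked against its markers.

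Neurons signal by firing an action potential and releasing transmitter at synapses. The voltage-gated sodium channel encoded by para carries the action potential, and the calcium channel encoded by cac opens at the active zone, which is organised by the scaffold protein Bruchpilot, the product of brp. Calcium entering there is sensed by Syt1, and nSyb on the vesicle and Syx1A on the plasma membrane form the SNARE complex that fuses the pair of membranes. The gene elav encodes a neuronal RNA-binding protein that acts in splicing and in the choice of mRNA ends, futsch a microtubule-binding protein of axons, and Appl the fly member of the amyloid precursor protein family.

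The authors deposited 8 peak lists. Each replicate has a ranked list, with 52143 and 37242 peaks, and a thresholded list, with 1450 and 1908. The series as a whole has a pair of ranked lists, of 9602 and 9224 peaks, from which a conservative list of 1474 and a further thresholded list of 1653 were drawn. Thresholded peaks lay within an irreproducible discovery rate (IDR) of 0.01, which is 2 as a −log10 value. The IDR measures how well a peak keeps its place between a pair of input lists. The signal of a peak is the authors' value, and its scale is not stated in the labels or file headers, so signals were compared within a list and not between lists. The depth of the libraries is unknown, and a gene without a peak cannot be told from one below the detection limit. A summit within 500 bp of an annotated start site of the gene was called a promoter summit. A summit inside the gene, outside its exons and farther than that from its start sites was called intronic. Summits up to 2000 bp beyond the ends of a gene were also counted.

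Ravus-eGFP had a peak upstream of elav in all 8 lists. It had one upstream of Syx1A in every ranked list and in no thresholded list. These are the sites on which the account below turns, and the bases from 50 bp before to 50 bp after their summits are shown so that their base composition and the letters they share can be read. A weaker site in the first part of elav and a peak below the threshold at Syt1 are shown for comparison. All are from the dm6 sequence, written 5' to 3' on the minus strand, which is the coding strand of these genes, and so run toward the start site in the case of the 3 promoters. Capitals mark TGGTATTT and CTATTAAA or their reverse complements, which occurred in both strong promoter windows and were picked after the windows had been compared.
elav promoter, chrX:523432-523532: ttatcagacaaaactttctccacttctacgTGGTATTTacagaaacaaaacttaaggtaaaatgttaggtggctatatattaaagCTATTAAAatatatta
Syx1A promoter, chr3R:24105809-24105909: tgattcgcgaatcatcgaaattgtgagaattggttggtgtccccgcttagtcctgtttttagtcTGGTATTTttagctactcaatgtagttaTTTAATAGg
elav intron, chrX:522652-522752: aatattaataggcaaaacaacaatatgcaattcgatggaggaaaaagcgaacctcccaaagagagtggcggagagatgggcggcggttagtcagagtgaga
Syt1 promoter, chr2L:2800155-2800255: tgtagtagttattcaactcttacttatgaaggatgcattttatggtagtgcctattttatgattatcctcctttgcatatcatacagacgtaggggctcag

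In the conservative list, elav was the 1 member with a summit, whether counted over the gene and 2000 bp beyond its ends or at the promoter. Over the whole annotation, 14.6% of protein-coding genes had a conservative summit within that wider window and 7.09% had one at a promoter. A count of 1 in 9, or 11.1%, therefore lay near these shares. No member had a conservative intronic summit, which 3.21% of protein-coding genes had. The members are long genes, with a median length of 37.8 kb against 2.16 kb for all protein-coding genes, so their windows cover more sequence than those of a typical gene. Their windows together spanned 352 kb and held 0.284 conservative summits per 100 kb, against 1.07 over all arms. The members on X, with 259 kb of windows, had 0.386 per 100 kb, against 1.30 over the X chromosome.

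The elav promoter peak was present in all 8 lists. Its summit in the conservative list lay at X:523482, 256 bp upstream of the outermost elav start site, with a signal of 309 at rank 136 of 1474. Replicate 1 gave a signal of 137 at rank 148 of its 52143 ranked peaks, and replicate 2 gave 168 at rank 161 of 37242. The summits of the replicates were 3 bp apart, and in both libraries this peak stood within the first 0.432% of the ranked list. Its −log10 IDR was 5, the highest value the lists can hold, in all 4 ranked lists. The same start site is annotated for lncRNA:enrr, a noncoding RNA on the same strand, so the peak cannot be assigned to elav alone. The summit also lies in an intron of arg, the gene of arginase, which runs on the opposite strand.

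A further site lay inside elav, in an intron, at X:522702. It was 524 bp downstream of the outermost start site, just beyond the promoter limit of 500 bp. Replicate 1 had a signal of 31.0 there, at rank 2208 of its ranked list, and replicate 2 had 70.0 at rank 877. The site was thus weaker than the upstream peak in both libraries, and it stood within the first 4.23% of the ranked list of replicate 1 and the first 2.35% of that of replicate 2. It passed the IDR limit in replicate 2, with a −log10 value of 4.18, and not in replicate 1, with 1.71. In the further thresholded list it had a signal of 93.8 at rank 1245 of 1653, and in the ranked list behind the conservative list its −log10 IDR was 1.79, below the limit of 2. With this site elav was the 1 member with an intronic summit in the further thresholded list, where 3.57% of protein-coding genes had one, and again the 1 member with any summit, against 16.5% of protein-coding genes. The thresholded list of replicate 1 held the upstream elav peak and no other summit at a member, and that of replicate 2 held both elav sites, in each case 1 of 9 members against 14.4% and 18.0% of protein-coding genes. The remaining elav summits in the ranked lists, 4 in each replicate, had signals between 11.8 and 15.7.

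**Figure D1:**
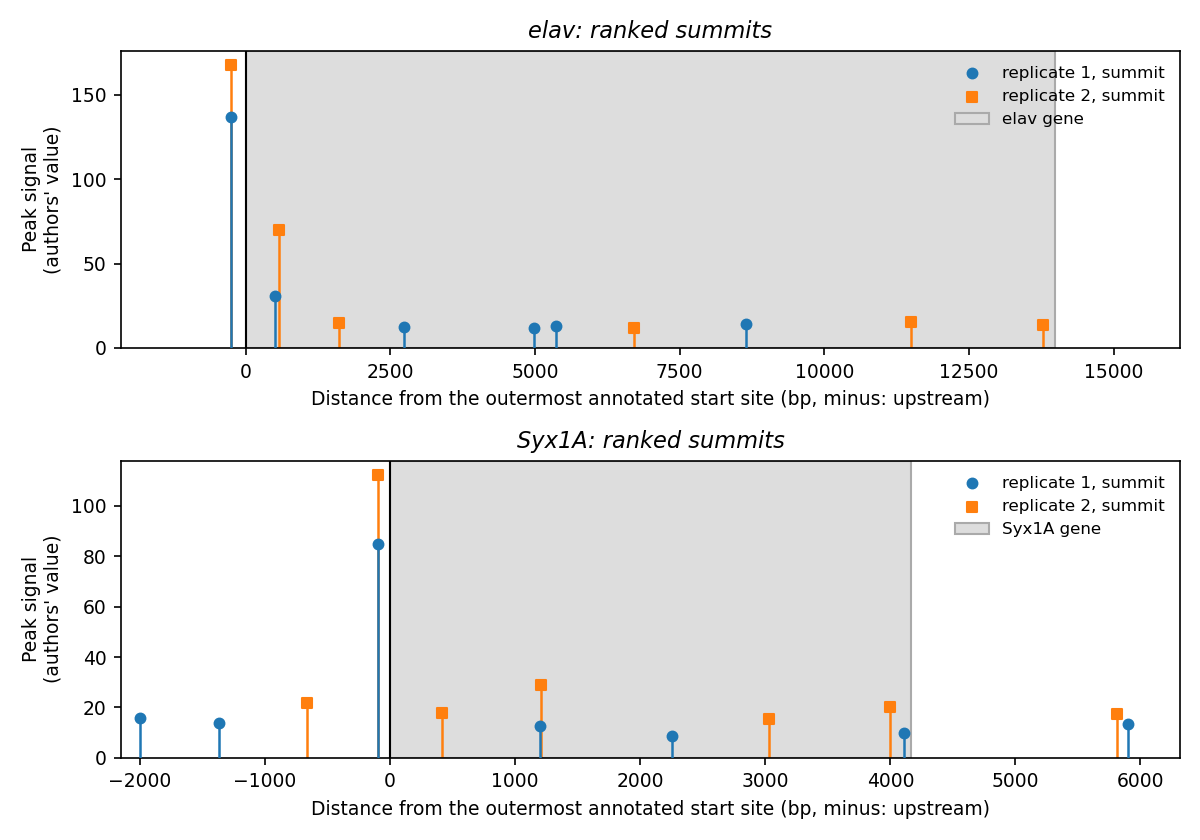
Signal of every ranked Ravus-eGFP summit at elav (top) and Syx1A (bottom) against distance from the outermost annotated start site in bp, with circles for replicate 1, squares for replicate 2 and grey for the annotated gene. At elav the upstream summit reaches 137 and 168 and the intronic summit 31.0 and 70.0, and at Syx1A the upstream summit reaches 84.7 and 112.

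Syx1A, the plasma membrane syntaxin, had the other strong promoter peak, and it is in none of the thresholded lists. Its summit lay at 3R:24105859, 96 bp upstream of the single Syx1A start site. Replicate 1 had a signal of 84.7 at rank 378 of 52143, and replicate 2 had 112 at rank 372 of 37242. Both replicates therefore placed it within the first 0.999% of their ranked lists, with summits 2 bp apart. In the ranked list behind the conservative list it had a signal of 198 at rank 360 of 9602. Its −log10 IDR was 4.62 there, 4.74 in the other ranked list of the series and 5 in each replicate, all above the limit of 2.

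Other peaks within the limit were missing from the thresholded lists as well. Of the 1515 peaks within the limit in the ranked list behind the conservative list, 41 were left out, or 2.71%, with 24 of them on 3R and 12 on 2L. The Syx1A peak was the 14th strongest of these 41, whose highest signal was 1211. The nearest other peak that was left out lay 3338 bp away, within 500 bp upstream of start sites of both CG18428 and eIF4EHP, with a signal of 448, and the nearest peak that was kept lay 6657 bp away with a signal of 131. In each of the other thresholded lists Syx1A was likewise the 1 member with a peak that met the limit and was left out. The authors' file list names 1 further input for the thresholded lists, which the ranked lists did not have and which it does not describe, and its part in the result was not tested. With the peaks that were left out counted in, 2 of 9 members had a promoter summit, elav and Syx1A, against 7.22% of protein-coding genes. The rest of the Syx1A window held summits of at most 15.9 in replicate 1 and 29.1 in replicate 2, the latter in an exon.

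At the other SNARE and vesicle genes the ranked summits were weaker and below the IDR limit. The Syt1 promoter summit lay 226 bp upstream of the start site on 2L, with a signal of 57.5 at rank 2740 of 9602 and a −log10 IDR of 0.749. Replicate 1 had 29.6 at rank 2417, with its summit 283 bp upstream, and replicate 2 had 28.8 at rank 3980, 183 bp upstream. An exonic Syt1 summit had signals of 19.4 and 23.4 in the replicates. At nSyb, the vesicle synaptobrevin, the strongest summit lay beyond the gene, 1790 bp upstream with a signal of 43.7 at rank 1224 in replicate 1 and 1828 bp upstream with 34.2 at rank 2823 in replicate 2. In the series lists its summit lay within 500 bp of start sites of Bgb and Mettl2, so it cannot be assigned to nSyb alone. At the nSyb start sites themselves replicate 1 had a single summit of 9.47, and replicate 2 had none.

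The genes of the active zone and the ion channels had no strong summit. At brp, the strongest summits were 21.7 in replicate 1, 1631 bp upstream of the gene, and 19.6 in replicate 2, in an exon. The brp promoter held no summit in replicate 1, and in replicate 2 its strongest was 17.5 at rank 17090. The sodium channel gene para, the longest member with 78.1 kb, had its strongest summits at 29.0 in an intron in replicate 1 and at 24.0 in an exon in replicate 2. Neither of these was repeated within 150 bp in the other replicate, and neither replicate had a promoter summit. The calcium channel gene cac had signals of at most 18.0 in replicate 1 and 14.5 in replicate 2, and both replicates had a weak promoter summit, with strongest values of 16.1 and 14.4 that lay at different start sites.

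The axonal genes futsch and Appl were similar in level and differed in how many weak summits each replicate listed. At futsch, replicate 1 had 23 summits of at most 20.7, and replicate 2 had a single one of 18.9, which lay 295 bp upstream of a start site. At Appl, replicate 1 had 17 summits of at most 17.5, of which 15 were intronic and none was at a promoter, and replicate 2 had 6, the strongest 69 bp upstream of a start site with a signal of 23.9. Neither gene had a summit in the ranked lists of the series, and the same held for cac.

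**Figure D2:**
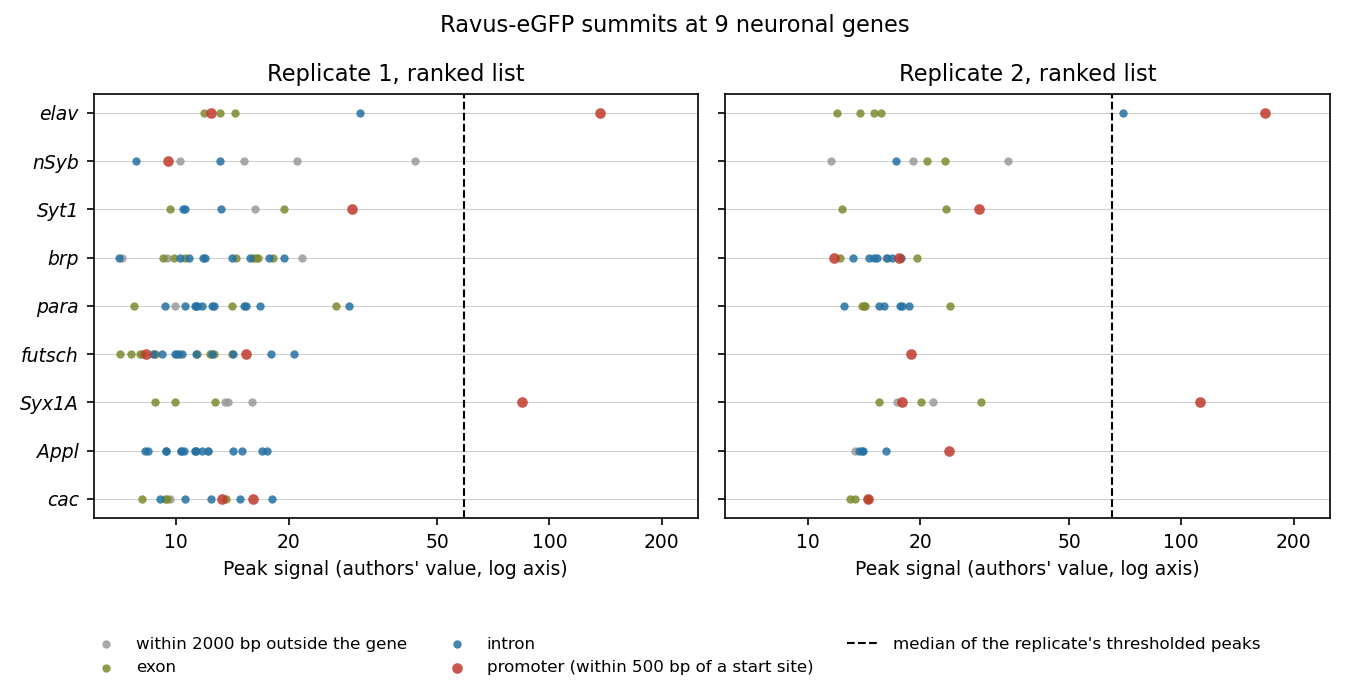
Signal (log axis) of every ranked summit at each of the 9 members in replicate 1 (left) and replicate 2 (right), coloured by position in the gene. The dashed line is the median signal of that replicate's thresholded peaks, 58.9 and 65.2, and the summits to its right are the promoter summits of elav and Syx1A in both replicates and the intronic elav summit in replicate 2.

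Ordered by their strongest ranked summit, the members stood in the same order at the top in both replicates. In replicate 1 the signal was 137 at elav, 84.7 at Syx1A, 43.7 at nSyb, 29.6 at Syt1 and 29.0 at para. In replicate 2 it was 168, 112, 34.2, 28.8 and 24.0 for the same genes. The other 4 changed places, with brp, futsch, cac and Appl between 21.7 and 17.5 in replicate 1, and Appl, brp, futsch and cac between 23.9 and 14.5 in replicate 2. With 1 value for each replicate and scales that need not match, neighbours such as Syt1 and para cannot be called different. The gap from elav and Syx1A to the rest was present in both libraries.

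Taken by promoters alone, 6 members had a ranked summit in replicate 1 and 7 in replicate 2, against 45.1% and 46.9% of protein-coding genes. Promoter summits of the replicates lay within 150 bp of each other at 4 members, elav, Syt1, Syx1A and cac, against 24.1% of protein-coding genes. A summit near any annotated start site was counted, and every member except Syx1A has 2 or 3 of them. The shares over all genes were not matched for the number of start sites, so no enrichment can be read from these counts. Among the 6298 genes with a promoter summit in replicate 1, whose median signal was 17.1, elav stood at place 131, Syx1A at 321, Syt1 at 1351, cac at 3436, futsch at 3675 and nSyb at 5759. Among the 6546 such genes of replicate 2, with a median of 21.1, elav stood at 137, Syx1A at 298, Syt1 at 2070, Appl at 2691, futsch at 3880, brp at 4352 and cac at 5555. Only elav, Syx1A and Syt1 of the 9 members were above the median in both replicates.

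**Figure D3:**
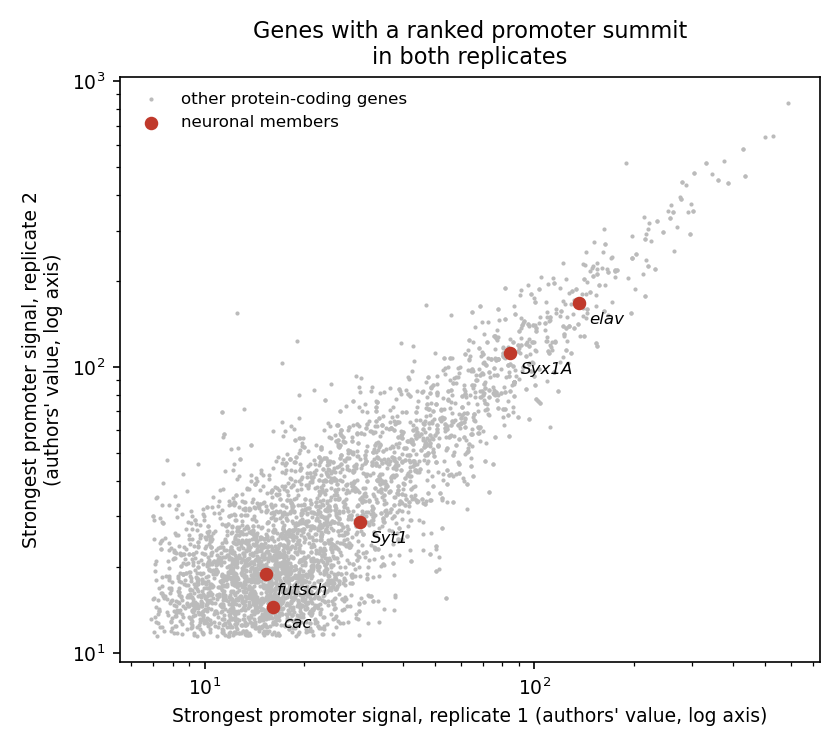
Strongest promoter signal in replicate 1 against replicate 2, both on log axes, for the 4115 protein-coding genes with a ranked promoter summit in both; red points are the 5 members among them. The points of elav and Syx1A lie in the upper part of the cloud, Syt1 nearer its middle, and futsch and cac among the weak promoters.

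Weak summits were spread over all 9 members in both ranked lists, as they were over most genes. Each member had at least 1 within its window in either replicate, against 89.3% of protein-coding genes in replicate 1 and 88.0% in replicate 2. Replicate 1 listed 115 summits at the members, of which 9 were at promoters, 57 in introns, 33 in exons and 16 beyond the gene ends. Replicate 2 listed 55, of which 9 were at promoters, 19 in introns, 20 in exons and 7 beyond the ends. The larger number in replicate 1 lay mainly in introns and exons, whereas the number at promoters was equal. Per 100 kb of window the members held 32.7 summits in replicate 1, against 37.3 over all arms, and 15.6 in replicate 2, against 26.9. The X members held 28.6 and 10.4, against 31.1 and 22.5 over the X chromosome.

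Matches between the replicates were counted over all ranked summits at the members, the strong elav and Syx1A sites included. Of the 115 in replicate 1, 20 had a summit of replicate 2 within 150 bp, or 17.4% (95% exact Clopper-Pearson interval 11.0 to 25.6%), against 27.2% of all ranked summits of replicate 1. Of the 55 in replicate 2, 20 had one in replicate 1, or 36.4% (23.8 to 50.4%), against 37.5% of all. These intervals cover counting error over summits only and treat the summits of 1 gene as independent. The share matched can also vary with the density of the other list. At the members that density was 15.6 per 100 kb in replicate 2, against 26.9 over all arms, and 32.7 in replicate 1, against 37.3. Its part in the shares was not tested, so they do not show that members are matched less often than other sites. At para and futsch none was matched in either direction, at brp 5 of 20 summits of replicate 1 were, and at Syx1A 4 of 7.

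GC content at the summit differed between the sites at members. The window at the elav promoter summit held 26.7% GC, against 39.1% in windows 300 bp to either side, a difference of -12.4 percentage points. Over the 1472 conservative summits on the arms the median was 29.7% GC and the median difference from the flanks -14.4. The Syx1A promoter window had 37.6% GC against 40.6% in its flanks, and 81.3% of the conservative summits had less GC. The intronic elav window had 45.5% GC against 49.0% in its flanks, and 94.0% of the conservative summits had less. The Syt1 window had 36.6% against 44.1%, and the site upstream of nSyb, at Bgb and Mettl2, had 24.8% against 48.0%, a difference of -23.3 points. Windows beside the summit were lower at some sites, with 29.7% GC at -40 bp from the Syt1 summit and 20.8% at -160 bp from the Syx1A summit. Both lay on the upstream side and were picked from the profiles. Low windows occurred farther away as well, with 23.8% at -700 bp and 22.8% at 400 bp for Syt1 and 22.8% at -760 bp for Syx1A. They therefore cannot be tied to the summits.

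**Figure D4:**
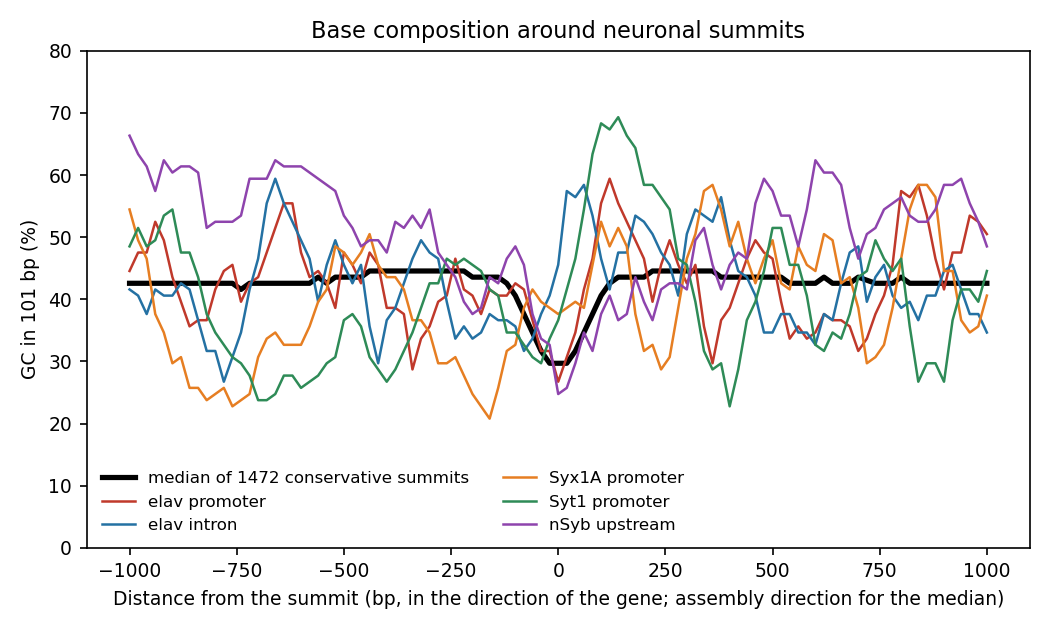
GC content in percent, in windows of 50 bp to either side of each point, against distance from the summit in bp, for 5 sites at members (coloured) and as the median over 1472 conservative summits (black). At the summit the curves stand at 26.7% for the elav promoter, 24.8% upstream of nSyb, 45.5% for the intronic elav site and 37.6% for the Syx1A promoter, beside a median of 29.7%. The Syt1 and Syx1A curves are lower beside the summit, with 29.7% at -40 bp and 20.8% at -160 bp. Both also dip farther away, to 22.8% at 400 bp for Syt1 and 22.8% at -760 bp for Syx1A.

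AT-rich sequence upstream of a start site was found at members without a strong peak as well. The lowest GC content of any window of that size centred 50 to 300 bp upstream of a start site was 17.8% at para, 18.8% at Syx1A, 19.8% at nSyb, 21.8% at both brp and Syt1, 23.8% at futsch and 26.7% at elav. It was 35.6% at cac and 42.6% at Appl. The median was 20.8% for the 991 genes with a conservative promoter summit (quartiles 17.8 and 23.8%) and 24.8% for the other 12977 (20.8 and 31.7%). The value at elav was thus above the upper quartile of the genes with a conservative promoter summit. Those at para, nSyb, brp, Syt1 and futsch were below the median of the genes without one. The latter group includes Syx1A, whose peak was left out of the conservative list. A gene with more start sites had more windows from which the lowest was taken. The members had from 1 start site, at Syx1A, to 3, at para among others, and the values were not adjusted for this.

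The windows shown above were searched on both strands for the TATA box sequence TATAAA, the repeat ATATATAT, the GAGA element GAGAG, the E-box CANNTG and the DRE sequence TATCGATA. GAGAG occurred at 2 positions in the intronic elav window, and none of these motifs occurred in the elav, Syx1A and Syt1 promoter windows. Over all conservative summit windows TATAAA stood in 27.0%, against 9.78% of their flanks, and ATATATAT in 4.01% against 1.26%. GAGAG stood in 8.15% against 18.0%, CANNTG in 31.4% against 41.2% and TATCGATA in 0.543% against 0.510%. The word TGGTATTT, which the elav and Syx1A promoters share, stood in 1.43% of the 1472 conservative windows and 0.747% of their flanks. CTATTAAA stood in 1.49% and 0.442%. Other AT-rich words were thus also more frequent at summits than in flanks, and the part of base composition was not tested. In the windows shown no match overlapped one of another motif. These are matches of letters near a summit and are given as a description.

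Other neuronal genes were taken from 12 lists by role, 106 genes with the members included. Expression of the listed genes in neurons was not checked, and some may act mainly in other cells. Of these, 6 had a conservative promoter summit, or 5.66%, and 18 had a summit within the gene or 2000 bp of its ends, or 17.0%, close to the 7.09% and 14.6% of all protein-coding genes. An intronic summit was present in 8, or 7.55% against 3.21%. The 106 genes had a median length of 22.6 kb, and the intronic share and gene length cannot be told apart. Their windows held 0.551 summits per 100 kb against 1.07 over the arms. Syx1A was the single gene of the lists with a peak that had been left out of the conservative list. No vesicle fusion gene and none of 12 transmitter receptor genes had a conservative summit, the Syx1A peak not being in that list, and the other members of the ELAV family, fne and Rbp9, had none either.

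The neuronal genes with a promoter summit besides elav were Ank2, aph-1, Nrx-1, NaCP60E and sei. Ank2, an ankyrin of axons and synapses, had a summit 293 bp upstream with a signal of 247 at rank 222 of 1474, and the replicates gave 112 at rank 216 and 147 at rank 222 of their ranked lists. At aph-1, a subunit of gamma-secretase, the signal was 154, and the peak was shared with the start site of Snx21. The synaptic adhesion gene Nrx-1 had 146, and NaCP60E, a sodium channel relative, had 116 at a site shared with RpL41. The potassium channel gene sei had 91.8, shared with gammaSnap1, and was absent from the further thresholded list and the thresholded list of replicate 1. Like elav, the genes Ank2, aph-1, Nrx-1 and NaCP60E had a promoter summit in all 8 lists, the likeness chosen for naming genes with a pattern near that of elav.

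Away from promoters the strongest neuronal site lay in KCNQ, a potassium channel gene, whose intron held summits of 420 and 128 in the conservative list. The first stood at rank 65, above the elav promoter, with 175 in replicate 1 and 235 in replicate 2. Map60, counted through its place in the axonal cytoskeleton list, and Sytbeta had summits beyond the gene ends. These had signals of 203 and 154 and lay at the start sites of CG1827 and Reck. Ca-alpha1T, a calcium channel gene, had 124 at 902 bp upstream. Intronic summits of 112 at Syn, 108 at both Nrg and NetA and 100 at ChAT followed. The ChAT summit lay within 500 bp of a start site of lncRNA:CR46265 and was also counted for the neighbouring VAChT. Among the remaining genes, Ank2 had a summit of 80.5 beyond the gene at the start of Mcad, NetB had 86.0 in an exon and 83.7 in an intron, Spn 88.2 and sli 84.5.

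**Figure D5:**
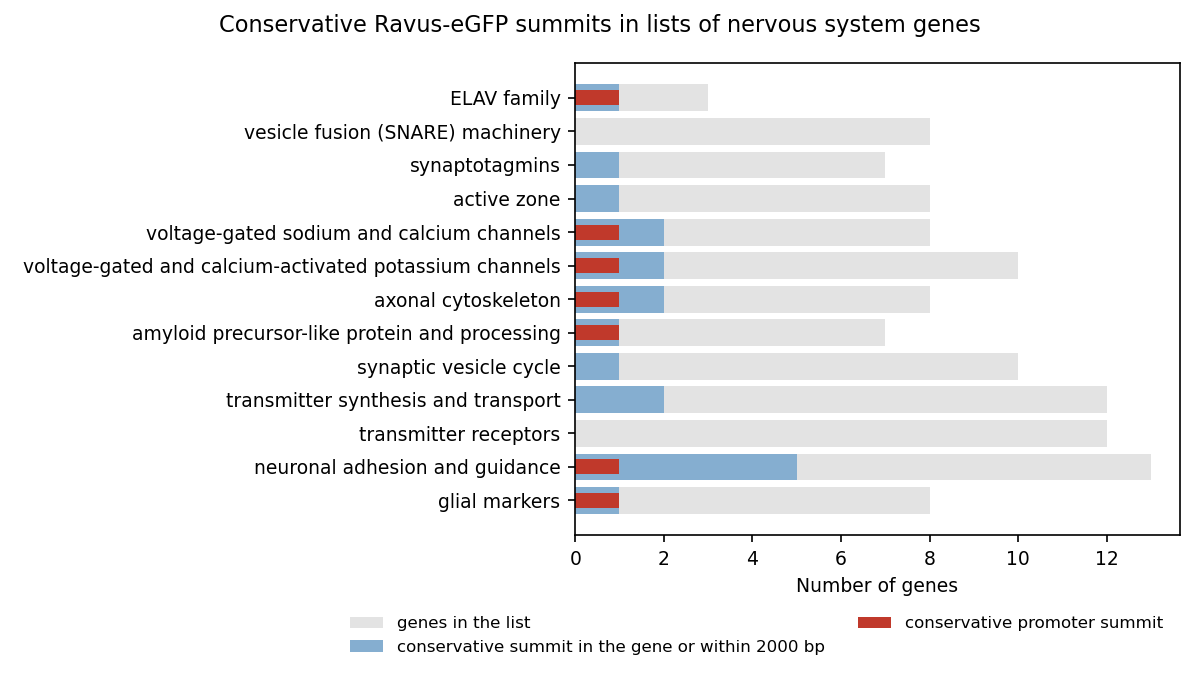
Number of genes (bars) in each of 13 lists of nervous system genes, with the number that had a conservative Ravus-eGFP summit in the gene or within 2000 bp (blue) and at a promoter (red). Over all 12 neuronal lists 18 of 106 genes had a summit and 6 had one at a promoter, against 14.6% and 7.09% of protein-coding genes, and the Syx1A peak of 198, left out of the conservative list, is not counted.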

How the data were processed

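The authors deposited 8 lists of peaks on dm6, made from the alignments of 1 or both replicates and from inputs that it does not describe, per the file list given with the samples. Which aligner and peak caller were run is not stated in the labels or headers. The deposited signal, score and −log10 IDR (capped at 5) are the authors' values, and the summit is the peak start plus the deposited offset. A total of 8 deposited columns with signals of the input peaks was not used. Arm lengths of the RefSeq sequence were checked against all peaks and genes before coordinates were used. Genes came from Ensembl 115, and coordinates are 1-based. Calculations used Python 3.11.15, numpy 2.4.6 and pandas 2.3.3, and summit assignment was tested on simulated data.

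The members and lists were chosen with earlier results of these data known. The study has 1 group, so no test between groups was made, and counts are given beside those of all protein-coding genes. Named genes were the members, genes with a conservative promoter summit in the neuronal lists, and up to 10 with the strongest other conservative summit. Where more are named, they were chosen after their values were seen. Other genes at a site are those with a start site within 500 bp. Alternatives were other lists, either replicate alone, other windows and overlap by any base.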

Additional observations from a re-analysis of the deposited data

How the results depend on the processing

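Of 37 values recomputed under alternatives for 5 results, 24 were counted as the same and 13 as moved. For GC content, values that differed from the reported one could still be counted as the same. The count of members with any conservative summit, 1 as reported, was 0 without the 2000 bp beyond the gene ends, since the elav summit lies upstream of the gene, and 2 with 5000 bp, which added a peak of signal 131 that lay 2398 bp beyond Syx1A. The number of summits moved in the same way, to 0 and 2. The count of members with a promoter summit was 0 within 250 bp of a start site, as the elav summit lay 256 bp away. Counting the peaks left out of the conservative list, an alternative chosen after seeing the data, gave 2 members with any summit and 2 with a promoter summit. Members with an intronic summit numbered 0 as reported, and 1 in the further series list. The number of summits was 2 in that list. Leaving out 1 replicate gave between 0 and 1 members with an intronic summit and between 1 and 2 summits, the higher values without replicate 1 and due to the intronic elav site. GC content at the member summit was 26.7%, against 33.3% in a narrower window and 36.8% in a wider window at the summit. Both changes of window size therefore raised the value, so the low GC content at this summit depends on the window. With 1 replicate left out, GC content was between 26.7 and 43.1%, where 2 sites entered the mean without replicate 1. No paired analysis was possible because the study has a single group. The unknown depth limits every statement on genes without a peak.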

Other observations

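Of 8 glial marker genes, 1 had a conservative summit, beside 14.6% of all protein-coding genes with one in the same window. It was moody, which encodes a receptor of the glia that form the blood-brain barrier. Its promoter summit lay 162 bp upstream of the start site with a signal of 292 at rank 156 of 1474, close to the place of the elav promoter. Replicate 1 gave 96.0 at rank 295 of its ranked list and replicate 2 gave 193 at rank 120, and the summit was present in all 8 lists. The glial determinants gcm and gcm2 and the marker repo had no conservative summit.

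Some neuronal genes had a thresholded peak in 1 replicate's list only. Those named here are examples, and their number was not set against the share over all protein-coding genes. The list of replicate 2 is also the longer, with 1908 peaks against 1450. The promoters of comt, which encodes the vesicle fusion factor NSF, and of X11L had signals of 48.5 and 46.8 in the thresholded list of replicate 2 and no conservative summit. At comt the summit also lay at start sites of CG15742 and mew. An intron of Elk had a signal of 39.2 in the thresholded list of replicate 1. Among the others were shot, Spn, fra, Nmdar1 and sei in the list of replicate 2, and Shal and ChAT in that of replicate 1.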
